A study of Mus musculus with 2 samples.

Results

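The genes for 6 chemokine ligands, Xcl1, Ccl1, Ccl3, Ccl4, Ccl5 and Cxcl2, were followed in innate lymphoid cells (ILCs) of mouse skin. ILCs are lymphocytes that carry no rearranged antigen receptor. The genes were taken by name, as ligands that ILCs can make, and all 6 were found among the 18786 genes of the table. The skin was that of C57/BL6 mice, taken on postnatal day 1 or on postnatal day 14, and each age has 1 library. No further treatment or genotype is named. Skin was digested with collagenase, cells that were CD45+, lineage-negative and Thy1.2+ were sorted, and their RNA was tagged in droplets with version 1 of the 5' kit of 10x Genomics. The number of animals behind each library is not given in the sources used here. Of 5246 cells, 4949 with at most 10% of their UMIs from mitochondrial genes were used, where a UMI is a molecular tag that counts 1 captured RNA molecule.

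Cell names end in 1 of 2 suffixes, called cell set 2 and cell set 1 below. The suffixes match neither age label, so the values describe 2 sets of cells and not the ages, there are no replicates, and no test was run between the sets. Cell set 2 held 3508 kept cells with a median of 4849 UMIs, and cell set 1 held 1441 with a median of 10683 UMIs. The sets shared 4 barcodes, of which 3 were among the kept cells, and doublets were not removed. All intervals are 95% intervals that cover counting error only. The labelled cell type was checked against markers: Gata3, a transcription factor on which type 2 ILCs (ILC2s) depend, stood at 593 counts per 1000000 UMIs (CPM) in set 2, against 577 CPM in set 1, while Cd3e, a subunit of the T cell receptor complex, stood at 5.94 CPM in set 2, against 7.39 CPM in set 1. UMIs of Cd3d or Cd3e were in 4.56% of cells of set 2 and 10.1% of cells of set 1. T cell receptor constant genes were well detected, with Trbc2 at 432 CPM in set 2, against 436 CPM in set 1, and the 8 alpha beta T cell markers summed to 939 CPM in set 2, against 781 CPM in set 1. Of 10 macrophage and monocyte markers, 4 were at 0 in set 2 and 1 was at 0 in set 1, and together they summed to 4.66 CPM in set 2, against 13.9 CPM in set 1. The 6 neutrophil markers found in the table summed to 2.11 CPM in set 2, against 0.848 CPM in set 1.

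Chemokines are small secreted proteins that draw cells along a gradient through receptors coupled to G proteins. XCL1 binds XCR1, which is carried by dendritic cells that present antigen to cytotoxic T cells. CCL1 binds CCR8, found on some T cells and ILC2s. CCL3, CCL4 and CCL5 draw T cells and monocytes, and CCL3 and CCL5 bind CCR1. CXCL2 binds CXCR2 and draws neutrophils. Lymphocytes are known to make XCL1, CCL3, CCL4 and CCL5 on activation, and NF-kB is known to turn on Cxcl2 in many cell types.

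Cxcl2 was by far the most abundant of the 6 genes in both sets, at 566 CPM in set 2 (10201 UMIs), against 618 CPM in set 1 (10203 UMIs). Xcl1 stood at 46.0 CPM in set 2 (829 UMIs), against 45.3 CPM in set 1 (748 UMIs). Ccl1 stood at 28.3 CPM in set 2 (511 UMIs), against 30.7 CPM in set 1 (507 UMIs). Ccl5 was at 2.50 CPM in set 2 (45 UMIs), against 13.7 CPM in set 1 (227 UMIs). Ccl3 and Ccl4 were close to the limit of detection, with 2 UMIs of Ccl3 and 1 of Ccl4 in set 2, against 34 and 25 UMIs in set 1. The order Cxcl2, Xcl1, Ccl1, Ccl5, Ccl3, Ccl4 was therefore the same in both sets, although Ccl3 and Ccl4 did not differ beyond their counting intervals. A 5' library counts each molecule once whatever its length, so these CPM values order the genes by captured molecules.

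**Figure D1:**
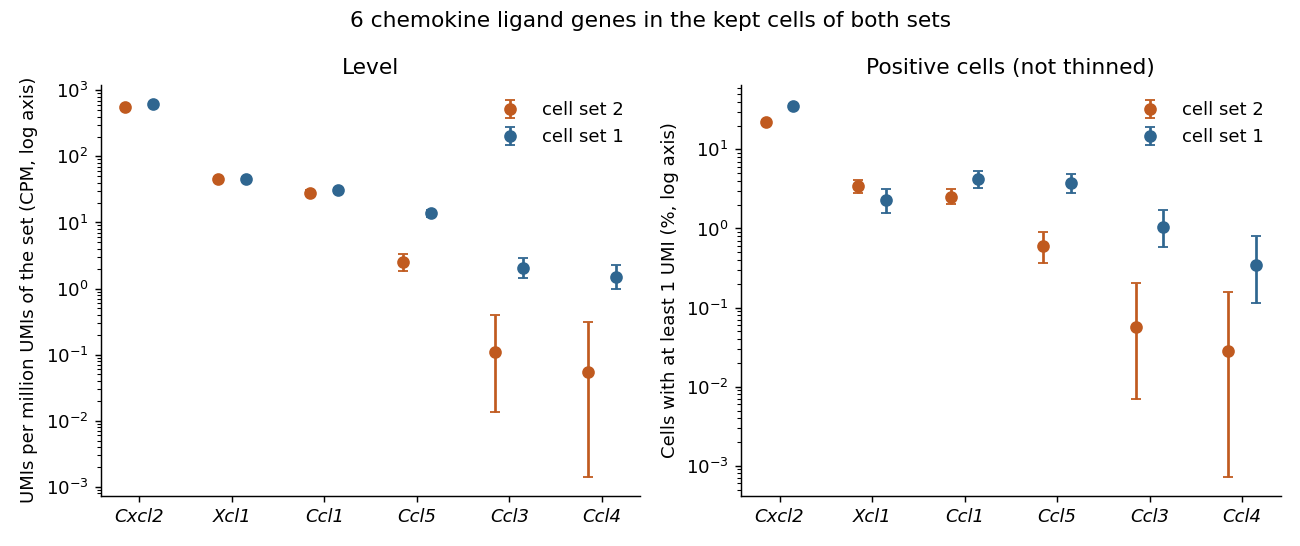
Level (left, CPM on a log axis) and share of cells with at least 1 UMI (right, percent on a log axis) of the 6 ligand genes in the kept cells of set 2 (orange) and set 1 (blue). Points are the values, bars the 95% intervals of counting error, and the sets lie close together for Cxcl2, Xcl1 and Ccl1 in level, while Ccl5, Ccl3 and Ccl4 were lower in set 2.

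The ratio of set 2 over set 1 was 1.02 for Xcl1 (0.919 to 1.12), 0.923 for Ccl1 (0.815 to 1.05) and 0.916 for Cxcl2 (0.891 to 0.942). It was 0.182 for Ccl5 (0.129 to 0.251), 0.0539 for Ccl3 (0.00627 to 0.210) and 0.0366 for Ccl4 (0.000893 to 0.224). Thus 0 of the 6 genes were at least 2-fold higher in set 2, where 6.23% of 9495 genes with at least 100 UMIs were, and 3 of the 6 were at least 2-fold lower, where 8.91% of those genes were. In either direction the share over all genes was 15.1%. The median log2 ratio, on CPM + 1, was -0.69 over the 6 ligands and -0.14 over the 9495 genes. Ccl3 and Ccl4 did not reach 100 UMIs themselves. Scaling with trimmed means raised every log2 ratio by 0.15 and put the Cxcl2 ratio at 1.02, so no direction is given for its level. Without cycling cells the ratio was 0.609 for Xcl1, 1.5 for Ccl1 and 0.0937 for Ccl5.

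Cxcl2 UMIs were found in many cells, in very unequal numbers. In set 2, 782 cells (22.3%, 20.9 to 23.7%) held at least 1 UMI, and in set 1, 510 cells did (35.4%, 32.9 to 37.9%). Since cells of set 1 held more UMIs each, every cell was also thinned at random to 2000 UMIs, which left out 249 shallower cells of set 2 and 15 of set 1. The share was then 17.5% in set 2 (571 of 3259 cells, 16.2 to 18.9%) and 23.1% in set 1 (330 of 1426 cells, 21.0 to 25.4%). At their own depth the positive cells held a median of 5 UMIs in set 2 and 6 in set 1, with the highest cell at 226 UMIs in set 2 and 399 UMIs in set 1. The top cell of set 2 spent 3.93% of its UMIs on Cxcl2, and a cell of set 1 with 342 UMIs spent 5.36%. The 86 highest cells of set 2 and the 34 highest of set 1 held 50% of their set's Cxcl2 UMIs.

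The Cxcl2 gene lies on chromosome 5, 90903871 to 90905938, plus strand (GRCm38, the build also named mm10, GENCODE vM21), 10755 bases from Cxcl1 and 114270 bases from Cxcl3, both on the same strand. Its transcript shares an unbroken stretch of 157 bases with Cxcl3, at bases 61 to 217, near the 5' end where this kit reads. How the counting divided such reads between both genes is not given in the sources used here, so the split of counts between Cxcl2 and Cxcl3 is uncertain. With Cxcl1 the longest shared stretch was 23 bases. The promoters of Cxcl2, Xcl1 and Ccl1, the ligands with most UMIs, are shown with their matches to fixed forms of motifs, including those of factors that act in activated lymphocytes. Looser forms of these motifs were not searched, so a promoter without a match may hold a site of another form. Each is the 250 bases before the start in RefSeq (GRCm38.p6), 5' to 3' on the gene's strand, at chr5:90903649-90903898 (plus) for Cxcl2, chr1:164935523-164935772 (minus) for Xcl1 and chr11:82179813-82180062 (minus) for Ccl1. Capitals mark a match to the NF-kB motif in its 10-base form, with any base allowed at the fifth place, and matches to the TATA-like motif ATAAAAG.
Cxcl2: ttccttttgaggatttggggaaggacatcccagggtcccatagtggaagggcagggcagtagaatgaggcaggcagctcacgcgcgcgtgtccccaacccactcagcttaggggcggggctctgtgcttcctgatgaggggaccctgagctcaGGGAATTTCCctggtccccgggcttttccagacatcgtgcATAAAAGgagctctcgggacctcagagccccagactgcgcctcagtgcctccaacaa
Xcl1: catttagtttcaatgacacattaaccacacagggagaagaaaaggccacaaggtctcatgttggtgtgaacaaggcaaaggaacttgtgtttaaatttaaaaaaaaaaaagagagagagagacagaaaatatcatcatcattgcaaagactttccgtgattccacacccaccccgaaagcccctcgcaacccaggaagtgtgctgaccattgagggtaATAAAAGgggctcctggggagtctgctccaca
Ccl1: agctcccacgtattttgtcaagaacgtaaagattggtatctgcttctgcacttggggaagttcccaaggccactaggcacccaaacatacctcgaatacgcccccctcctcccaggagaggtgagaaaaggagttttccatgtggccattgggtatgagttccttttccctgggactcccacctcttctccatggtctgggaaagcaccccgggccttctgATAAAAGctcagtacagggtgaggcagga
The NF-kB motif, searched on both strands, was found in Cxcl2, at bases -97 to -88 from the start, and in 117 of 32851 promoters of the same length (0.356%). ATAAAAG was found in Cxcl2 (-57 to -51), Xcl1 (-32 to -26) and Ccl1 (-29 to -23), and in 4.83% of all promoters. It was chosen after the sequences had been seen. Positions count from the RefSeq start. The Cxcl2 window ends at 90903898, past the GENCODE start of 90903871, so its matches lie closer to that start than these positions say. The Xcl1 window overlaps the GENCODE span of its gene by fewer bases. The NFAT motif TGGAAA, not in capitals here, was found once each in Cxcl2 and Ccl1 and in 18.6% of all promoters. The AP-1 motif TGANTCA had no match in these windows and was in 6.75% of all promoters. The promoter of Ccl3 held none of the 4 motifs in the forms searched. Ccl4 and Ccl5 had no entry in the table of promoters.

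Cells with Cxcl2 UMIs held more RNA of several NF-kB genes and effector cytokines. After thinning, Nfkbia, the inhibitor that NF-kB itself turns on, had a UMI in 84.4% of Cxcl2-positive and 74.7% of Cxcl2-negative cells of set 2, and in 87.9% of positive and 61.3% of negative cells of set 1. Areg, an epidermal growth factor ligand, stood at 1306 CPM in positive and 886 CPM in negative cells of set 2, and at 1168 CPM in positive and 451 CPM in negative cells of set 1. For Csf2, the cytokine GM-CSF that sustains myeloid cells, positive cells stood at 180 CPM and negative cells at 82.0 CPM in set 2, and positive cells at 167 CPM and negative cells at 43.3 CPM in set 1. For Il1rl1, the receptor for IL-33, these were 34.2 CPM (positive) and 15.3 CPM (negative) in set 2, and 42.4 CPM (positive) and 7.30 CPM (negative) in set 1. Il5, which sustains eosinophils, was at 278 CPM in positive and 201 CPM in negative cells of set 2, and at 295 CPM in positive and 81.7 CPM in negative cells of set 1. Il4 did not follow in set 2, at 19.3 CPM in positive and 34.2 CPM in negative cells, and stood at 106 CPM in positive and 67.5 CPM in negative cells of set 1. Of 11 ILC2 markers measured in set 2, 6 were higher in Cxcl2-positive cells (median log2 ratio 0.06), and of 8 in set 1, 7 were (0.70). Seen from the other side, 24.6% of Csf2-positive cells of set 2 held Cxcl2, against 16.8% of Csf2-negative cells, and in set 1, 54.5% of Csf2-positive cells did, against 20.5% of Csf2-negative cells.

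**Figure D2:**
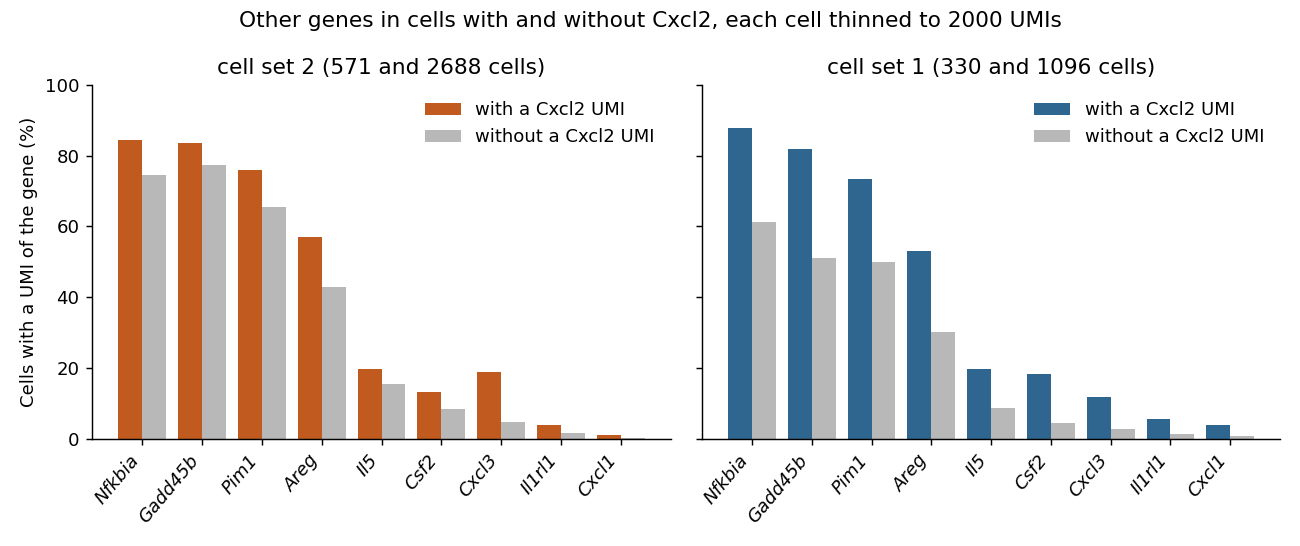
Share of cells with a UMI of 9 other genes (percent, linear axis from 0) among Cxcl2-positive cells (coloured bars) and Cxcl2-negative cells (grey bars) of set 2 (left) and set 1 (right), each cell thinned to 2000 UMIs. The 9 genes were chosen after their values were seen, so their shared direction is not a test. All 9 had the higher share in the Cxcl2-positive cells of both sets. Nfkbia was at 84.4% of positive and 74.7% of negative cells in set 2. In set 1 it was at 87.9% of positive and 61.3% of negative cells.

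Of 14 NF-kB pathway genes with at least 100 thinned UMIs, 14 were higher in Cxcl2-positive cells of set 1 and 7 were at least 2-fold higher (Rel, Nfkbia, Nfkbid, Nfkbiz, Tnfaip3, Traf1 and Birc3), where 0.781% of 3455 genes were. Their median log2 ratio was 0.90, against -0.04 over all genes. In set 2, 11 of 14 were higher, with a median of 0.21 against -0.03, and 0 were at least 2-fold higher, where 0.205% of 5378 genes were. Early-response genes, which include the AP-1 factors, had a median log2 ratio of 0.15 in set 2 (21 genes) and 0.48 in set 1 (18 genes), and heat-shock genes one of 0.22 in set 2 (13 genes) and 0.14 in set 1 (12 genes). Effector cytokines were at 0.41 in set 2 (15 genes) and 0.72 in set 1 (11 genes), with Il17f and Csf2 at least 2-fold higher in set 2, and Il5, Csf2 and Areg in set 1. Cytotoxic and type 1 genes were at -0.14 in set 2 (9 genes) and 0.03 in set 1 (7 genes), and calcium and NFAT pathway genes at 0.12 in set 2 (7 genes) and -0.17 in set 1 (5 genes). Mast cell markers summed to 295 CPM in Cxcl2-positive and 167 CPM in Cxcl2-negative cells of set 1, with Cma1, a mast cell protease, at 105 CPM in the positive and 24.6 CPM in the negative cells. Without cells that held UMIs of 4 mast cell genes at their own depth, Nfkbia was found in 86.3% of 190 positive and 62.0% of 660 negative cells of set 1, and Csf2 in 17.9% of positive and 4.39% of negative cells. Erythroid markers summed to 320 CPM in Cxcl2-positive and 170 CPM in Cxcl2-negative cells of set 2, and to 83.3 CPM in positive and 172 CPM in negative cells of set 1, and their part was not tested.

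Across single cells of both sets, 3573 genes were compared with Cxcl2 by Pearson's r of log values, and none reached 0.15 in both sets. The nearest was Nfkbia, with r = 0.149 over 3259 cells of set 2 and 0.342 over 1426 cells of set 1. Areg followed at 0.127 in set 2 and 0.254 in set 1, and Pim1, a survival kinase, at 0.125 in set 2 and 0.247 in set 1. These cells share 1 library per set, and all were thinned to the same depth.

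Clusters were made from all kept cells without any chemokine ligand gene, which gave 8 clusters. The sets fell largely into different clusters, so levels are given within a set. Leading genes and raised markers are those of a whole cluster, with cells of both sets, against all other cells. In set 2, Cxcl2 was highest in the 60 cells of cluster 7, at 2006 CPM with 43.3% of cells positive. That cluster was led by Il1rl1, Klrg1, Csf2 and Il5, and 9 of 13 ILC2 markers were raised in it. Its level was 1387 CPM without its top cell, and at the coarser Leiden resolution of 0.3 no cluster of at least 50 cells of set 2 exceeded 752 CPM. The lowest level of set 2 was 107 CPM, in cluster 2 (273 cells, led by Tspan32, Tbc1d10c and AI504432), and the large clusters 4 (1205 cells, led by Il2, Hspa1b and Id3) and 5 (1716 cells, led by Hopx, Ccr7 and Cd70) were at 683 and 459 CPM. In set 1, cluster 1 (198 cells, led by Tyrobp, Fcer1g and Il22, with 8 of 12 ILC3 markers raised) was highest at 1282 CPM, cluster 0 (682 cells, led by Slc38a4, Igsf5 and Calca) was at 641 CPM, and clusters 2 and 3 were at 445 and 444 CPM. Among clusters with at least 50 cells in a set, the thinned share of Cxcl2-positive cells ran from 6.22% in cluster 2 to 37.3% in cluster 7 of set 2, and from 14.4% in cluster 2 to 29.6% in cluster 1 of set 1. No cluster was of a type known to lack Cxcl2, so the share that free RNA alone would give was not measured.

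**Figure D3:**
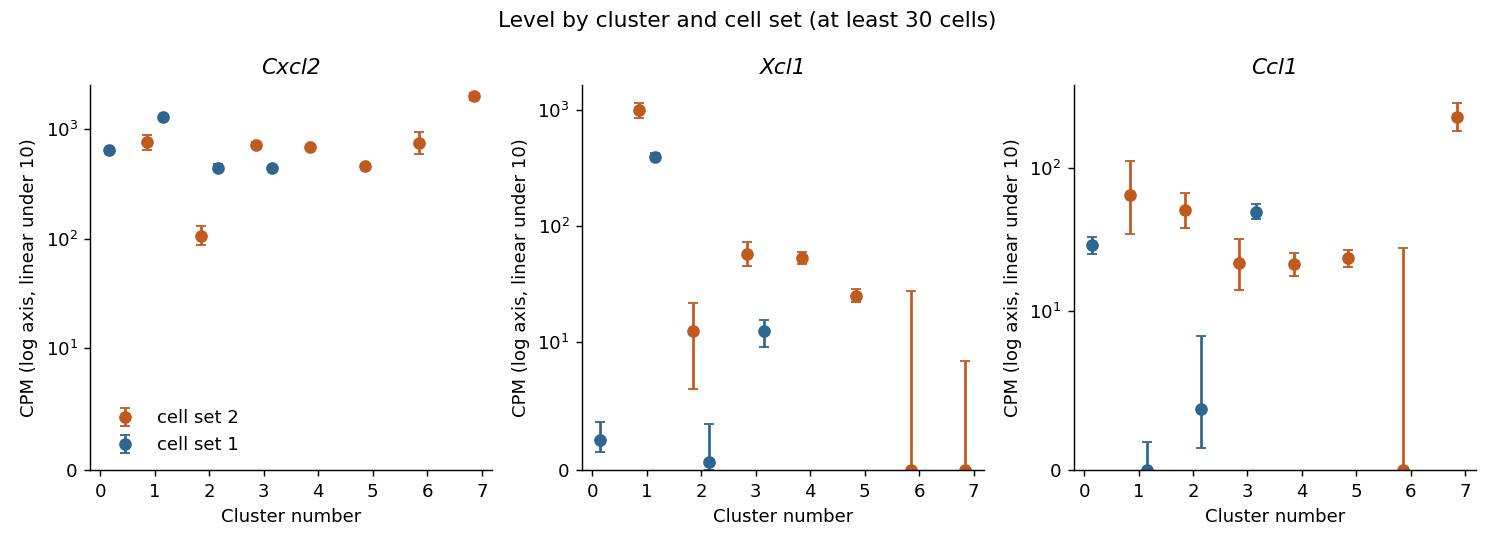
Level of Cxcl2, Xcl1 and Ccl1 (CPM, log axis that is linear under 10) in each cluster of set 2 (orange) and set 1 (blue) with at least 30 cells, with 95% intervals of counting error. Cxcl2 and Ccl1 were highest in cluster 7 of set 2, at 2006 and 227 CPM, and Xcl1 was highest in cluster 1 of both sets, at 995 CPM in set 2, against 396 CPM in set 1.

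Xcl1 had a similar summed level in both sets, and few cells held most of it. The gene lies on chromosome 1, 164931644 to 164935527, minus strand. In set 2, 120 cells held at least 1 UMI (3.42%), and in set 1, 33 cells did (2.29%). After thinning the shares were 2.45% in set 2 (1.95 to 3.05%) and 1.26% in set 1 (0.750 to 1.99%). A single cell held 302 of the 748 UMIs of set 1 (40.4%), and the 10 highest cells held 93.3%, against 38.8% for the 10 highest cells of set 2. Without the top cell of each set the level was 42.5 CPM in set 2, against 27.0 CPM in set 1, and their ratio was 1.57. Beside its Xcl1 UMIs that top cell of set 1 held 97 UMIs of Areg, 35 of Ctsw, 16 of Nkg7 and 7 of Klrd1, and none of Cd3d or Cd3e.

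**Figure D4:**
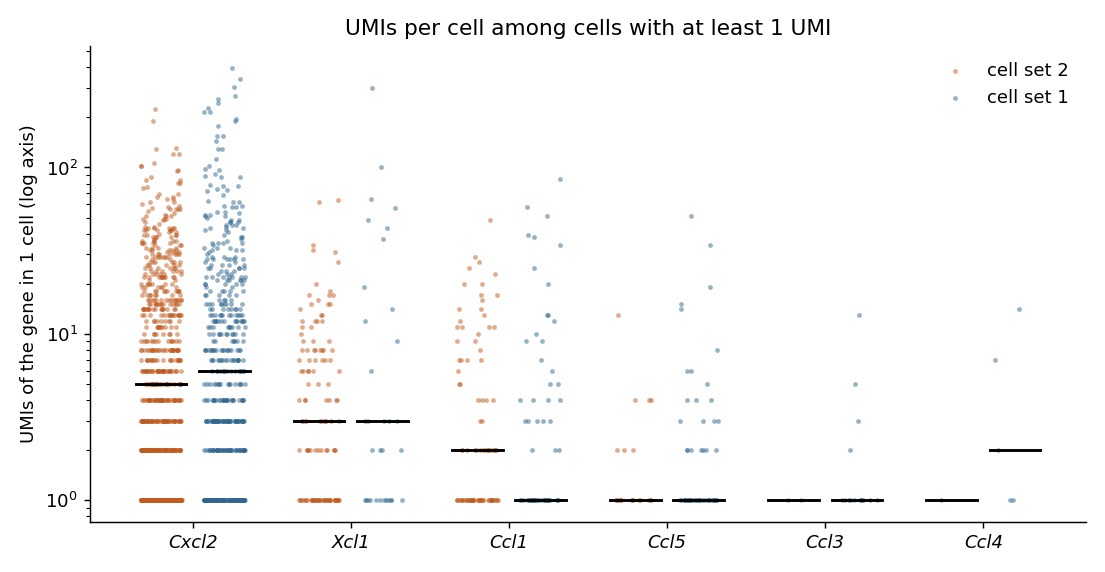
UMIs of each ligand gene in single cells at their own depth (log axis), 1 point per cell with at least 1 UMI, for set 2 (orange) and set 1 (blue), with black lines at the medians. Cxcl2 points reach 226 UMIs in set 2 and 399 in set 1, Xcl1 has 1 cell at 302 UMIs in set 1, and the medians lie between 1 and 6 UMIs.

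Cells with Xcl1 UMIs held more RNA of some cytotoxic lymphocyte genes in both sets. Ctsw, a protease gene of cytotoxic lymphocytes, stood at 625 CPM in Xcl1-positive and 279 CPM in Xcl1-negative cells of set 2, and at 1194 CPM in positive and 45.1 CPM in negative cells of set 1, where 18 thinned cells were positive. Nkg7, a cytotoxic granule protein, was at 269 CPM in positive and 113 CPM in negative cells of set 2, and at 444 CPM in positive and 75.3 CPM in negative cells of set 1. Of 9 cytotoxic and type 1 genes measured in set 2, 7 were higher and Gzmb, Nkg7 and Ctsw were at least 2-fold higher, where 2.83% of 5378 genes were. Their median log2 ratio was 0.34, against -0.06 over all genes. None of 11 ILC2 markers was higher in Xcl1-positive cells of set 2, with a median log2 ratio of -0.52, and Il5 stood at 75.0 CPM in positive and 218 CPM in negative cells. In set 1 the ILC2 markers summed to 4194 CPM in Xcl1-positive (3552 to 4919) and 3568 CPM in Xcl1-negative cells. That sum includes Areg, at 1806 CPM in the positive and 602 CPM in the negative cells of set 1. In set 2, Areg was at 931 CPM in the positive and 960 CPM in the negative cells. By share, Xcl1 was in 1.78% of Areg-positive and 0.977% of Areg-negative cells of set 1. Il13, Il5 and Gata3 went the other way there. Xcl1 was in 0.311%, 0% and 0.888% of their positive cells, against 1.54%, 1.42% and 1.72% of their negative cells. In set 2, 3.42% of Ctsw-positive cells held Xcl1, against 1.82% of Ctsw-negative cells, and in set 1, 10.4% of Ctsw-positive cells did, against 0.530% of Ctsw-negative cells.

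Some markers of T and NK cells moved with Xcl1. The gamma delta T cell markers summed to 625 CPM in Xcl1-positive and 279 CPM in Xcl1-negative cells of set 2, and to 361 CPM in positive and 145 CPM in negative cells of set 1. The alpha beta T cell markers summed to 1331 CPM in positive and 935 CPM in negative cells of set 2, and of the 4 with at least 100 thinned UMIs in set 2, 2 were higher in positive cells. Cd3e stood at 119 CPM in Xcl1-positive and 5.19 CPM in Xcl1-negative cells of set 2, where 3.75% of the 80 positive cells held it and 1 cell had 20 Cd3e UMIs at its own depth, and Klrd1, an NK receptor subunit, at 389 CPM in positive and 4.62 CPM in negative cells of set 1, where 38.9% of the positive cells held it. Cells with Cd3d or Cd3e UMIs held 12.1% of the Xcl1 UMIs of set 2 and 16.3% of those of set 1. Cells with Klrd1 UMIs were 0.371% of set 2 and 2.22% of set 1. They held 16.9% of the Xcl1 UMIs of set 2 and 73.0% of those of set 1. The 3 highest Xcl1 cells of set 1, with 302, 101 and 65 UMIs, all held Klrd1 UMIs. The list of 10 NK and ILC1 markers summed to 13.4 CPM over all cells of set 2, against 40.03 CPM over set 1, with 1 marker at 0 in each set. After thinning it summed to 93.8 CPM in Xcl1-positive cells (15 UMIs) and 11.6 CPM in Xcl1-negative cells of set 2. In set 1 it summed to 1028 CPM in positive cells (37 UMIs, with 6 of the 10 markers at 0) and 32.0 CPM in negative cells. Without cells that held UMIs of 6 T or NK genes, the Xcl1 ratio of set 2 over set 1 was 3.04. That left 142 Xcl1 UMIs in set 1. Without cells that held UMIs of 4 mast cell genes the ratio was 2.29, with 192 Xcl1 UMIs left in set 1. Such cells were 0.171% of set 2 and 40.4% of set 1. They held 0 of the Xcl1 UMIs of set 2 and 74.3% of those of set 1. Both settings left out the cell of set 1 with 302 Xcl1 UMIs. The part of the T, NK or mast gene cells in the Xcl1 level was not tested further.

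By cluster, Xcl1 was highest in cluster 1 of both sets. In set 2 the 39 cells of cluster 1 stood at 995 CPM, with 15 of them positive (38.5%), and in set 1 the 198 cells stood at 396 CPM, with 16 positive (8.08%). Without the top cell the level was 695 CPM in set 2, against 216 CPM in set 1. These cells held 24.0% of the Xcl1 UMIs of set 2 and 88.1% of those of set 1. Clusters 3, 4 and 5 of set 2 were at 57.3, 52.8 and 24.9 CPM. Xcl1 had no UMI in the 60 cells of cluster 7, which permits a share of up to 5% of cells with a UMI (taking a count of 0 to allow 3 cells), although Cxcl2 and Ccl1 were highest there.

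Cells with Ccl1 UMIs were rich in type 2 cytokines. GENCODE places the gene on chromosome 11, 82176657 to 82305690, minus strand. The promoter window shown above, 82179813 to 82180062, was placed by the RefSeq start and lies inside that span. In set 2, 89 cells held at least 1 UMI (2.54%), and in set 1, 61 cells did (4.23%), and after thinning the shares were 1.75% in set 2 (1.33 to 2.26%) and 1.54% in set 1 (0.969 to 2.33%). The 11 highest cells of set 2 and the 5 highest of set 1 held 50% of its UMIs. Csf2 stood at 579 CPM in Ccl1-positive and 90.7 CPM in Ccl1-negative cells of set 2, and at 409 CPM in positive and 66.6 CPM in negative cells of set 1, where 22 thinned cells were positive. For Il13, which drives mucus production and tissue remodelling, positive cells stood at 763 CPM and negative cells at 348 CPM in set 2, and positive cells at 1386 CPM and negative cells at 214 CPM in set 1. For Il4 these were 96.5 CPM (positive) and 30.5 CPM (negative) in set 2, and 295 CPM (positive) and 73.0 CPM (negative) in set 1. After thinning, Nkg7 had no UMI in Ccl1-positive cells of either set, against 119 CPM in the Ccl1-negative cells of set 2 and 81.2 CPM in those of set 1. By share, Ccl1 was in 0 of 512 Nkg7-positive cells of set 2 (up to 0.718%), against 2.075% of Nkg7-negative cells. In set 1 it was in 0 of 160 (up to 2.28%), against 1.74%, so that absence lies within counting error. At its own depth, the third highest Ccl1 cell of set 1 held 1 Nkg7 UMI.

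Of 15 effector cytokines measured in set 2, 12 were higher in Ccl1-positive cells and Il2, Il4, Il13, Csf2, Tnfsf8 and Cd70 were at least 2-fold higher, where 4.83% of 5378 genes were. Their median log2 ratio was 0.81, against -0.05 over all genes. Of 11 ILC2 markers, 9 were higher and Il1rl1, Il13, Il4, Il9r and Il2ra were at least 2-fold higher, with a median of 0.90, while Il17rb was at least 2-fold lower. In set 2, Ccl1 reached 227 CPM in cluster 7, where 13 of 60 cells were positive (21.7%), and stood between 21.2 and 65.0 CPM in the clusters 1 to 5. At resolution 0.3 no cluster of at least 50 cells of set 2 exceeded 33.0 CPM. The 51.0 CPM of cluster 2 came from a cell with 48 UMIs, without which it was 2.05 CPM, and the 65.0 CPM of cluster 1 (2 of 39 cells positive) was 10.4 CPM without its top cell. In set 1, cluster 3, which held cycling cells, was at 49.5 CPM and cluster 0 at 28.9 CPM, and none of the 198 cells of cluster 1 held a Ccl1 UMI.

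Ccl5, Ccl3 and Ccl4 were rare. Ccl5 lies on chromosome 11, 83525778 to 83530518, and was found in 21 cells of set 2 (0.599%) and 54 cells of set 1 (3.75%). After thinning the shares were 0.245% in set 2 (0.106 to 0.483%) and 1.40% in set 1 (0.859 to 2.16%), so fewer cells of set 2 held it at equal depth. Its UMIs too were uneven, with a highest cell of 13 UMIs in set 2 and 51 in set 1, and without the top cell of each set the level was 1.78 CPM in set 2, against 10.7 CPM in set 1. In set 1, cluster 1 was highest at 54.7 CPM (17 of 198 cells), and the 39.3 CPM of cluster 2 became 6.47 CPM without its top cell. The second highest cell of set 1, with 34 Ccl5 UMIs, also held 28 UMIs of Gzma, a granzyme gene of cytotoxic lymphocytes. Among the 20 Ccl5-positive thinned cells of set 1, Nkg7 stood at 400 CPM and Gzmc at 450 CPM, against 75.4 and 10.7 CPM in the negative cells.

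Ccl3 and Ccl4 lie 13228 bases apart on chromosome 11, at 83647844 to 83649355 on the minus strand and 83662584 to 83664683 on the plus strand. Ccl3 was found in 2 cells of set 2 and 15 cells of set 1, and Ccl4 in 1 cell of set 2 and 5 cells of set 1. No cell of either set held both genes, even at its own depth. After thinning, neither was found in 3259 cells of set 2, which allows a share of up to 0.0921% by the same allowance, and each was found in 2 of 1426 cells of set 1 (0.140%, 0.0170 to 0.506%). The highest cell of set 1 held 13 of the 34 Ccl3 UMIs, and another held 14 of the 25 Ccl4 UMIs. That many UMIs in 1 cell each leave few positive cells behind either level.

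Few cells held more than 1 of the 6 ligands. After thinning, 79.0% of cells in set 2 and 73.2% in set 1 held none of the 6, 20.1% in set 2 and 25.9% in set 1 held exactly 1, and 0.951% in set 2 (31 cells) and 0.842% in set 1 (12 cells) held 2. No thinned cell held 3 or more, while at their own depth 4 cells of set 2 held 3 and 1 held 4, and 1 cell of set 1 held 3. Xcl1 and Cxcl2 were found together in 12 cells of set 2, against 14.0 from the product of their shares (ratio 0.856, 0.442 to 1.496), and in 1 cell of set 1, against 4.17 (0.240, 0.00608 to 1.34). Ccl1 and Cxcl2 were found together in 15 cells of set 2, against 9.99 (1.502, 0.841 to 2.48), and in 6 cells of set 1, against 5.09 (1.18, 0.432 to 2.57). Ccl5 and Cxcl2 met in 2 cells of each set, against 1.40 in set 2 (1.43, 0.173 to 5.15) and 4.63 in set 1 (0.432, 0.0523 to 1.56). The intervals of these 3 pairs span 1, so at this depth neither avoidance nor preference was detectable for them. At their own depth, which differs between cells, Ccl1 and Cxcl2 met in 30 cells of set 2, against 19.8 (1.51), and in 26 of set 1, against 21.6 (1.20). Xcl1 and Cxcl2 met in 28 cells of set 2, against 26.75 (1.05), and in 8 of set 1, against 11.7 (0.685). Ccl5 and Cxcl2 met in 15 cells of set 1, against 19.1 (0.785). The other 12 of the 15 pairs met in at most 1 thinned cell of a set. Xcl1 and Ccl4 met in 1 thinned cell of set 1, against 0.0252 (39.6, 1.003 to 221), which rests on that cell alone. Xcl1 and Ccl1 met in 8 cells of set 2 and 2 of set 1 at their own depth.

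Other chemokine ligand genes were spread in both directions. Of 32 listed, 28 were in the table and 13 had at least 20 UMIs, of which 3 were at least 2-fold higher and 5 at least 2-fold lower in set 2. Among all 12026 genes with at least 20 UMIs, 8.88% were higher and 12.2% lower by that measure. The median log2 ratio was 0.12 over the 13 and -0.13 over all of these genes. Cxcl3, the neighbour of Cxcl2 that also binds CXCR2, was at 126 CPM in set 2, against 59.4 CPM in set 1 (2.12, 1.97 to 2.29). Cxcl1, of the same group, was at 3.72 CPM in set 2, against 17.5 CPM in set 1 (0.212, 0.160 to 0.278). Cxcl14, which keratinocytes and fibroblasts make, was at 0.388 CPM in set 2, against 5.63 CPM in set 1. The 8 keratinocyte markers summed to 53.5 CPM in set 2, against 195 CPM in set 1, and the 7 fibroblast markers to 5.55 CPM in set 2, against 89.0 CPM in set 1, with none at 0, and their part in the Cxcl14 level was not tested. Cx3cl1 stood at 14.0 CPM in set 2, against 5.39 CPM in set 1. In set 2, 45.3% of Cxcl3-positive thinned cells also held Cxcl2, against 15.4% of Cxcl3-negative cells, and in set 1, 55.7% of Cxcl3-positive cells did, against 21.5% of Cxcl3-negative cells. The shared stretch of both transcripts described above applies to these values.

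Among 8 receptor genes for these ligands, 5 had at least 20 UMIs. Ccr8, the receptor for CCL1, was the most abundant at 70.8 CPM in set 2, against 48.7 CPM in set 1 (1.45, 1.33 to 1.59). Cxcr2, the receptor for CXCL2, was at 2.50 CPM in set 2 (45 UMIs), against 0.303 CPM in set 1 (5 UMIs). Xcr1, the receptor for XCL1, was at 1.94 CPM in set 2 (35 UMIs), against 0.424 CPM in set 1 (7 UMIs). Both were thus at least 2-fold higher in set 2, on few UMIs, where 8.88% of 12026 genes with at least 20 UMIs were. Ccr1 was at 1.55 CPM in set 2, against 0.969 CPM in set 1. The median log2 ratio of the 5 was 0.53, against -0.13 over those 12026 genes. The sorted cells thus held RNA for CCR8 and little for CXCR2, XCR1 or CCR1.

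Pathway genes known to act upstream of chemokine genes, and other products of activated lymphocytes, were compared between the sets as lists, beside the same shares of all genes (8.88% higher, 12.2% lower, median -0.13). Of 15 NF-kB pathway genes, 3 were at least 2-fold higher in set 2 (Traf1, Rel and Birc3) and 0 at least 2-fold lower, with a median log2 ratio of 0.38. Nfkbia was at 1895 CPM in set 2, against 1457 CPM in set 1. Of 22 early-response genes, 6 were at least 2-fold higher and 4 lower, with a median of 0.28, Nr4a3 at 308 CPM in set 2, against 97.7 CPM in set 1, and Atf3 at 370 CPM in set 2, against 877 CPM in set 1. Of 10 calcium and NFAT pathway genes, Nfatc3 alone was at least 2-fold higher, at 104 CPM in set 2, against 50.2 CPM in set 1, and the median was 0.11. Of 22 effector cytokines, 9 were higher and 4 lower by that measure, with a median of 0.79, Cd70 at 186 CPM in set 2, against 3.27 CPM in set 1, and Il22 at 3.77 CPM in set 2, against 166 CPM in set 1. Of 15 cytotoxic and type 1 genes, 3 were higher and 3 lower, with a median of 0.57, Ctsw at 290 CPM in set 2, against 49.7 CPM in set 1, and Gzma at 0 in set 2, against 12.5 CPM in set 1. Of 13 heat-shock genes, Hspb1 alone was at least 2-fold lower, at 48.2 CPM in set 2, against 148 CPM in set 1, and their median was -0.70.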

How the data were processed

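RNA was measured in single skin cells of 2 libraries. The authors deposited 1 table of UMI counts, whole numbers per gene and cell that had not been scaled. The tools were Cell Ranger 3.1.0 and Seurat 4.1.0 with mm10, per the submitters' processing notes. How they were set is not given in the sources used here. Because the cell suffix matches neither age, the table was treated as 1 pooled sample. The members and lists were chosen with earlier results of these data known.

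Cells above 10% mitochondrial UMIs were left out, which left 18026148 UMIs in set 2 and 16514632 in set 1. CPM are UMIs summed over cells per 1000000, with exact Poisson intervals, exact binomial intervals of ratios and Clopper-Pearson intervals of shares. Cells were thinned without replacement to 2000 UMIs (Python 3.11.15, numpy 2.4.6, scipy 1.17.1). scanpy 1.11.5 and igraph 0.11.9 clustered cells from 2000 variable genes, 30 components and 15 neighbours at Leiden resolution 0.5. Raised markers had at least 20 CPM in a cluster, at least 2 times that of the other cells, and a UMI in at least 10% of its cells. edgeR 4.0.16 gave TMM factors, used as another scaling only. Steps were tested on simulated counts.

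Named genes were the 6 members, and up to 4 genes per list, with at least 20 UMIs, by the largest ratio of CPM + 10 between sets. Genes named by correlation needed r of at least 0.15 in both sets, and those given below that, and the genes given for cells with and without a ligand, were chosen after their values were seen. Other genes named from the lists were too.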

Additional observations from a re-analysis of the deposited data

Results flagged for a closer look

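Cxcl2 was also present in the cells that had been left out for more than 10% mitochondrial UMIs, and it is given because those cells entered no comparison. In set 2, 119 UMIs lay in 32 of 267 such cells (12.0%, 407 CPM, median depth 898 UMIs). In set 1, 52 UMIs lay in 8 of 30 such cells (26.7%, 569 CPM, median depth 2270 UMIs). The other 5 ligands had between 0 and 2 UMIs there.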

How the results depend on the processing

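Of 158 recomputed values, 104 stayed within the counting interval of the main value, or within 1.5 times for counts of genes. A further 52 moved beyond it. The other 2 crossed to the other side of 1, which was counted only where the main interval excluded 1. The Xcl1 and Ccl1 ratios, whose main intervals span 1, lay on either side of 1 across settings. The Cxcl2 ratio of set 2 over set 1 turned to 1.09 in cells with Xist and no Y-linked UMIs and to 1.02 with TMM factors, and was 0.976 at a 5% mitochondrial limit, 0.725 without cycling cells, 0.877 in cells with Y-linked UMIs and no Xist, 0.827 without the 5% deepest cells, 0.816 in thinned cells and 0.994 without cells with T or NK gene UMIs. The Xcl1 ratio was 0.609 without cycling cells, 0.585 in Xist-only cells, 1.37 in Y-only cells, 1.57 without the top cell of each set, 0.818 thinned, 1.13 with TMM, 3.04 without T or NK gene cells and 2.29 without mast gene cells. The Ccl1 ratio was 1.5, 1.23 and 0.610 in the first 3 of these, 1.12 thinned, 1.26 without T or NK gene cells and 1.52 without mast gene cells. The Ccl5 ratio was 0.0937 without cycling cells and 0.0871 in Y-only cells. The cause was not tested. Settings that leave out T, NK or mast gene cells were chosen after seeing the data.

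The Cxcl2 share was 21.8%, 22.3% and 12.7% in set 2 and 27.9%, 35.4% and 14.9% in set 1 when cells were thinned to 4000 UMIs, not thinned, or called positive at 2 UMIs. At 2 UMIs Xcl1 and Cxcl2 met in 0 cells of set 1. Among clusters of at least 50 cells in set 2, the highest Xcl1 level was 57.3 CPM, against 431 and 433 CPM at Leiden resolutions 0.3 and 1.0. The highest Ccl1 level was 227 CPM, against 33.0 CPM at 0.3 and 36.7 CPM when the ligand genes entered the clustering. For Cxcl2 it was 2006 CPM, against 752 CPM at 0.3, 1628 CPM at 1.0 and 732 CPM with the ligand genes. With a minimum of 20 UMIs, 1068 genes were at least 2-fold higher and 1468 lower in set 2. Ratios of Ccl3 in 3 settings and of Ccl4 in 5 could not be had because a set held no UMI. No paired analysis was possible because no result comes from a test and the cell names carry no replicate number. With 1 library per age and no map from cells to ages, library and age cannot be told apart, and 2 UMIs of Ccl3 and 1 of Ccl4 limit any ratio of set 2.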
